A study of Mus musculus with 4 samples.

Results

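The genes described here are 6 members of the BCL2 family that set whether a white blood cell lives or dies by the mitochondrial route of apoptosis: Mcl1, the near-identical paralogs Bcl2a1a, Bcl2a1b and Bcl2a1d, Bcl2, and Bcl2l11, which encodes BIM. They were chosen by name, and all 6 were among the 22631 genes measured in 4440 CD45+ cells (blood-derived cells) sorted from mouse tumours. All mice carried the IL-12p40-IRES-EYFP transgene, a reporter that places a yellow fluorescent protein under the interleukin-12 p40 gene. MC38 cells, a mouse colon carcinoma line, had grown in the flank for 7 days. The treated mice then got an agonist anti-CD40 antibody in the abdomen at 5 mg/kg, the untreated mouse none, and tumours were taken 2 days later. The sources used here do not give the strain background, sex or age. The cells came from 1 untreated tumour and from anti-CD40 tumours 1 and 2, the numbers being the authors' animal numbers. Each tumour is 1 replicate, because the 4 libraries made from each are technical parts of it.

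BCL2, MCL1 and A1, the protein of the Bcl2a1 genes, hold the pore formers BAX and BAK in check and so keep mitochondria closed. BIM is a BH3-only protein, a class of sensors that binds these guards and releases the pore formers. MCL1 is short-lived and its gene is known to be needed by neutrophils. A1 is best known as a gene switched on by NF-kB in myeloid cells and activated lymphocytes, and BCL2 as the guard of resting lymphocytes. CD40, the receptor the antibody triggers, sits mainly on antigen-presenting cells and feeds NF-kB.

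The 3 Bcl2a1 genes lie within 485 kb of chromosome 9 in the GRCm38 build. Bcl2a1a (chr9:88956900-88962419) and Bcl2a1b (chr9:89199209-89207827) are on the plus strand, and Bcl2a1d (chr9:88723285-88731914) is on the minus strand. Mcl1 is at chr3:95658788-95663176 and Bcl2l11 at chr2:128126038-128162547, both on the plus strand, and Bcl2 is at chr1:106538178-106714274 on the minus strand. An exon of Bcl2a1b overlaps the annotated gene Gm29094 on the same strand, and exons of Bcl2 overlap D630008O14Rik on the other strand. Whether counting used strand is not given in the sources used here, so reads of those neighbours cannot be told apart from the members' own.

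The paralogs are shown first, since their likeness limits what each count can mean. The first 90 coding bases of each, taken from the GENCODE M21 transcripts, are printed below with the 6 positions that differ among the genes in capitals.
Bcl2a1a: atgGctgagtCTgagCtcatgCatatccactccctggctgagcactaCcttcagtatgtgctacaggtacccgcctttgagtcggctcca
Bcl2a1b: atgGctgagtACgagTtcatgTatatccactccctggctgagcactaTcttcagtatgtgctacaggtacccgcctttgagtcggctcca
Bcl2a1d: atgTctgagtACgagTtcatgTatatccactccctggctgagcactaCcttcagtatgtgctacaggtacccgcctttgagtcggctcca

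Over the whole coding sequence of 516 bases, 12 positions differed among the 3 genes. Transcripts were 98.2% identical between Bcl2a1a and Bcl2a1b, 98.8% between Bcl2a1a and Bcl2a1d and 99.1% between Bcl2a1b and Bcl2a1d. These shares leave out gaps, of which there were 2, 44 and 46 positions in the same order. Of all stretches of 50 bases in a transcript, 31.0% for Bcl2a1a, 42.4% for Bcl2a1b and 20.5% for Bcl2a1d were found in no other paralog. With stretches of 100 bases these shares were 56.5%, 68.9% and 45.3%. A read from a shared stretch would fit more than 1 of these genes. How the authors' counting treated such reads is not given in the sources used here. The shares cover whole transcripts, and the part of the transcript that the reads came from was not examined. Counts of single paralogs are therefore uncertain, and the sum of the 3 genes is the main measure below. The fourth gene of the family, Bcl2a1c, had 7 UMIs (unique molecular identifiers, 1 per captured RNA molecule) in all cells and is left out of the sum.

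The bases just before the annotated start are also nearly shared, and are printed for Bcl2a1b (chr9:89199023-89199208, plus strand) and Bcl2a1d (chr9:88731915-88732100, minus strand), from RefSeq on GRCm38. Capitals mark GAGGAAGT, a core that the ETS factor PU.1 of myeloid cells is known to bind.
Bcl2a1b: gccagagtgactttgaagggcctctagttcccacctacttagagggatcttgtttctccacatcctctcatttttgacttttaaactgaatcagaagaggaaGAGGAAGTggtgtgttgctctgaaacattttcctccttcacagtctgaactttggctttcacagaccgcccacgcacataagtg
Bcl2a1d: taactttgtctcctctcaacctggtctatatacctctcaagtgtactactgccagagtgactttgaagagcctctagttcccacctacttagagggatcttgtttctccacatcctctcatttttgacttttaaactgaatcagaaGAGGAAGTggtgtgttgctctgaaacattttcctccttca

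The best local alignment of these stretches, each of 186 bases, covered only a part of them. It had 135 identical bases, 1 mismatch and 6 gap positions, or 99.3% identity with gaps left out. GAGGAAGT was chosen as a motif after the sequences had been seen. It was present, on either strand, in the windows of 300 bases around the start of Bcl2a1a, Bcl2a1b, Bcl2a1d and Bcl2a1c, in none of Mcl1, Bcl2 and Bcl2l11, and in 3.20% of all 32851 RefSeq windows of that length. The RUNX core TGTGGT, searched on both strands, was in 16.8% of the windows and in none of a member.

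Levels are given as CPM, the UMIs of a gene scaled to a total of 1000000 UMIs of all genes over the summed cells of a class and tumour, with exact Poisson 95% intervals. Shares of UMIs are given with Clopper-Pearson 95% intervals, and both kinds of interval cover counting error only. Cells of the untreated tumour had a median depth of 433 UMIs, those of anti-CD40 tumours 1 and 2 of 979 and 865, so shares of cells with a UMI are also given after each cell was thinned to 300 UMIs. No cell barcode was shared between libraries. The authors' cell type names were used, of which neutrophils (49 untreated, 700 and 215 treated cells), monocytes, macrophages and dendritic cells as a single class (1136, 448 and 1330 cells), T cells (150, 48 and 135) and NK cells (41, 28 and 128) were large enough to describe. The B cells (20, 2 and 5) held at most 3 UMIs of any member per tumour. Of the markers listed for each type, 8 of 8 neutrophil, 8 of 8 macrophage and monocyte, 8 of 8 T cell and 7 of 7 NK cell markers were detected in their own class in every tumour. Detection alone does not test the names, since all 8 macrophage and monocyte markers were also detected in untreated T cells. Levels are compared between cell types as a description, with no test, because the authors named the types from the expression of the same cells.

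Mcl1 was highest in neutrophils and was successively lower in the other myeloid cells, T cells and NK cells. In neutrophils its level was 2599 CPM (1988 to 3339, 61 UMIs) in untreated cells, 3353 (3220 to 3490, 2390 UMIs) in treated tumour 1 and 3975 (3683 to 4284, 686 UMIs) in treated tumour 2. In the monocyte, macrophage and dendritic cell class it was 769 (698 to 844), 985 (907 to 1068) and 1443 (1382 to 1506). In T cells it was 444 (308 to 621), 462 (282 to 713) and 626 (485 to 795), and in NK cells 300.2 (121 to 619), 310 (160 to 542) and 278 (193 to 389). The ranges over the 3 tumours did not overlap between any cell types next to each other in that order. When the 12 sums of cell type and tumour were scaled by TMM (trimmed mean of M values), an alternative added after the values were seen, untreated neutrophils stood at 1788 and the treated ones at 6071 and 6215. The neutrophil range then overlapped that of the other myeloid cells (862 to 1827), and the other neighbours stayed apart.

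Most neutrophils held a Mcl1 UMI in every tumour. The share was 57.1% of untreated and 87.1% and 84.2% of treated neutrophils, and after thinning 51.2%, 58.0% and 65.5%. The thinned share in the other myeloid cells was 20.1%, 27.0% and 35.4%, and in T cells 14.5%, 10.6% and 14.2%. Thinning left out 8, 33 and 15 neutrophils and 281, 29 and 67 other myeloid cells.

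**Figure D1:**
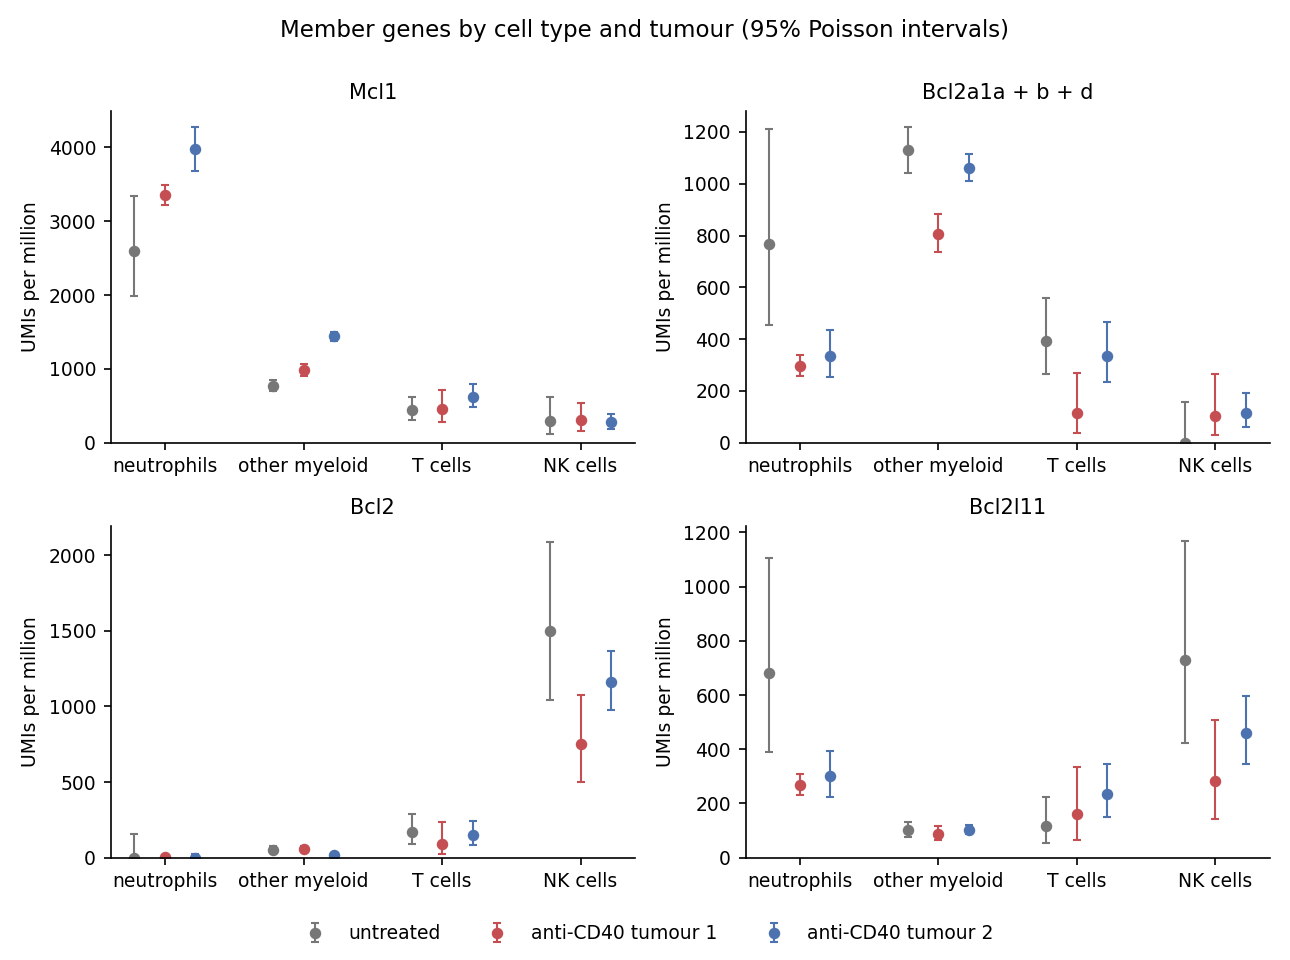
Levels (y axis, CPM) of Mcl1, the summed Bcl2a1 genes, Bcl2 and Bcl2l11 in 4 cell types (x axis), with 1 point per tumour and bars for the exact Poisson 95% interval. Mcl1 points of neutrophils sit between 2599 and 3975, above all other types, Bcl2 is high in NK cells alone, the Bcl2a1 sum is highest in the other myeloid cells, and Bcl2l11 is high in both NK cells and neutrophils.

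The Bcl2a1 genes had another order, with the monocyte, macrophage and dendritic cell class at the top. Their summed level there was 1128 CPM (1043 to 1219, 643 UMIs) in the untreated tumour, and 807 (737 to 883, 481 UMIs) and 1061 (1009 to 1116, 1544 UMIs) in treated tumours 1 and 2. In neutrophils it was 767 (455 to 1212) from only 18 UMIs in the untreated tumour, and 295 (256 to 337, 210 UMIs) and 336 (255 to 434, 58 UMIs) in the treated tumours. Every tumour's value in the myeloid class lay above every tumour's value in neutrophils, and this also held under the TMM scaling (877 to 1344 against 525 to 533). In T cells the sum was 392 (264 to 559), 115 (37.5 to 269) and 336 (236 to 466), a range that overlapped that of neutrophils. In NK cells it was 0 UMIs in the untreated tumour, which allows up to 129 CPM by 3 counts, and 103 (28.2 to 265) and 115 (62.6 to 192) in the treated tumours.

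Signal from other cells moved with some of these lymphocyte values. The summed level of the 8 macrophage and monocyte markers in T cells was 2795 CPM in the untreated tumour, where all 8 were detected, against 92.4 and 280.4 in the treated tumours. In NK cells it was 1801, 155 and 262. Leaving out cells with at least 3 UMIs of a second type's markers gave a T cell Bcl2a1 sum of 320.5, 99.3 and 353. The NK cell sum without such cells was 0, 122 and 108.5. For comparison, S100a9, the most abundant neutrophil marker, stood at 0, 485 and 421 CPM in T cells and at 0, 0 and 57.3 in NK cells. Whether RNA or cells of another type contributed to the low Bcl2a1 values in T and NK cells was not tested.

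Among the UMIs assigned to single paralogs, Bcl2a1b took the most in every cell type. In the myeloid class it had 67.5% (65.7 to 69.3) of 2668 UMIs, Bcl2a1a 26.9% (25.2 to 28.6) and Bcl2a1d 5.58% (4.74 to 6.52). In neutrophils the shares were 65.0% (59.2 to 70.6), 33.2% (27.8 to 39.0) and 1.75% (0.570 to 4.03) of 286 UMIs. In T cells Bcl2a1a had 2 of 71 UMIs, or 2.82% (0.343 to 9.81), both in the untreated tumour, while Bcl2a1b had 87.3% (77.3 to 94.0) and Bcl2a1d 9.86% (4.06 to 19.3). All 18 UMIs of NK cells were assigned to Bcl2a1b. The shares of Bcl2a1a thus had overlapping intervals in neutrophils and the other myeloid cells. Few or no lymphocyte UMIs were assigned to it, although the 18 UMIs of NK cells allow a share of up to 18.5%. Bcl2a1a levels in the myeloid class were 279, 247 and 283 CPM over the untreated tumour and treated tumours 1 and 2, those of Bcl2a1b 767, 497 and 734, and those of Bcl2a1d 82.5, 63.8 and 44.0. In neutrophils Bcl2a1a stood at 256, 101 and 98.5 and Bcl2a1b at 511, 187 and 238.

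Bcl2, the guard of lymphocytes, was high in NK cells, lower in T cells and scarcely detected in neutrophils. In NK cells its level was 1501 CPM (1046 to 2088, 35 UMIs) untreated, and 749 (502 to 1076, 29 UMIs) and 1162 (979 to 1370, 142 UMIs) in treated tumours 1 and 2. In T cells it was 170 (90.4 to 290.4), 92.4 (25.2 to 237) and 150 (85.5 to 243), and in the myeloid class 52.6, 55.4 and 15.8. Neutrophils held 2 Bcl2 UMIs in all, both in anti-CD40 tumour 1, which had 712755 neutrophil UMIs. The 4 cell types kept this order with no overlap over the 3 tumours, with plain totals and with the TMM scaling alike. A Bcl2 UMI was seen in 56.1%, 64.3% and 60.2% of NK cells against 0%, 0.286% and 0% of neutrophils, at median depths of 500, 1230 and 832.5 UMIs in NK cells and 435, 926 and 668 in neutrophils, and after thinning in 34.3%, 14.8% and 27.9% of NK cells.

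Bcl2l11 was shared by the cell types at the ends of the Bcl2 order. Its level in NK cells was 729 CPM (425 to 1167, 17 UMIs) untreated, and 284 (142 to 509, 11 UMIs) and 458 (346 to 595, 56 UMIs) in treated tumours 1 and 2. In neutrophils it was 682 (390 to 1107, 16 UMIs), 267 (230 to 307, 190 UMIs) and 301 (225 to 395, 52 UMIs). The 2 ranges overlapped, while T cells, at 118, 162 and 234, and the myeloid class, at 102, 89.0 and 103, lay below both and did not overlap each other. Under the TMM scaling neutrophils came first (469 to 483) and every cell type overlapped its neighbour.

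Within neutrophils the authors named 6 subsets. N4 held 4 cells in all and is not described further. The remaining untreated cells were too few for detail, with 0 cells in N1a, 4 in N1b, 14 in N2, 15 in N3 and 14 in N5. In the treated tumours the subsets had 128 and 16 cells in N1a, 148 and 14 in N1b, 196 and 44 in N2, 131 and 74 in N3, and 96 and 66 in N5, in tumours 1 and 2.

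The summed Bcl2a1 genes differed most between these subsets. In anti-CD40 tumour 1 the level was 46.4 CPM (18.7 to 95.6) in N1a, 99.95 (58.2 to 160) in N1b, 252 (188 to 329) in N2, 702 (552 to 880) in N3 and 782 (592 to 1013) in N5. In anti-CD40 tumour 2 it was 0 UMIs in N1a, which allows up to 157 by 3 counts, 60.4 (1.53 to 336) in N1b from 1 UMI, 333 (166 to 597) in N2, 512 (343 to 736) in N3 and 370.4 (216 to 593) in N5. Both tumours thus had the N1 subsets lowest, N2 between and N3 and N5 highest, although the intervals of N2, N3 and N5 overlapped in tumour 2. In that tumour the intervals of N1a (0 to 194) and N1b also overlapped that of N2, and that of N1b overlapped that of N5. Summed, in a grouping chosen after the values were seen, N3 and N5 were at 734 CPM against 74.8 in N1a and N1b in tumour 1, a ratio of 9.82 (6.32 to 15.9). In tumour 2 they were at 449 against 28.1, and with 1 UMI in the N1 cells the ratio of 15.99 has an interval of 2.73 to 645. Under a TMM scaling of the subset sums the largest N1 value was 141, below the smallest N2 value of the treated tumours, 346. The untreated N2, N3 and N5 cells stood at 810, 1014 and 806, from 6, 7 and 5 UMIs.

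Bcl2l11 varied less over the same subsets. Its level was 172 (113 to 253) in N1a, 223 (158 to 307) in N1b, 233 (172 to 307) in N2, 384 (275 to 521) in N3 and 494 (346 to 684) in N5 of anti-CD40 tumour 1. In anti-CD40 tumour 2 it was 52.5, 121, 243, 512 and 261 in the same order, the first 2 from 1 and 2 UMIs. The ratio of N3 and N5 to the N1 subsets was 2.15 (1.52 to 3.04) and 4.75 (1.52 to 24.0). Mcl1 was high in every subset, from 2857 (2594 to 3140) in N1a to 4376 (3909 to 4884) in N5 of tumour 1 and from 3252 (2494 to 4169) to 4554 (3957 to 5215) in tumour 2. The same ratio for Mcl1 was 1.30 (1.18 to 1.43) and 1.30 (1.06 to 1.61). Untreated N2, N3 and N5 cells held Mcl1 at 1890, 3043 and 2902 CPM. The treated subsets thus differed less in Mcl1 than in the Bcl2a1 sum, by these ratios.

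**Figure D2:**
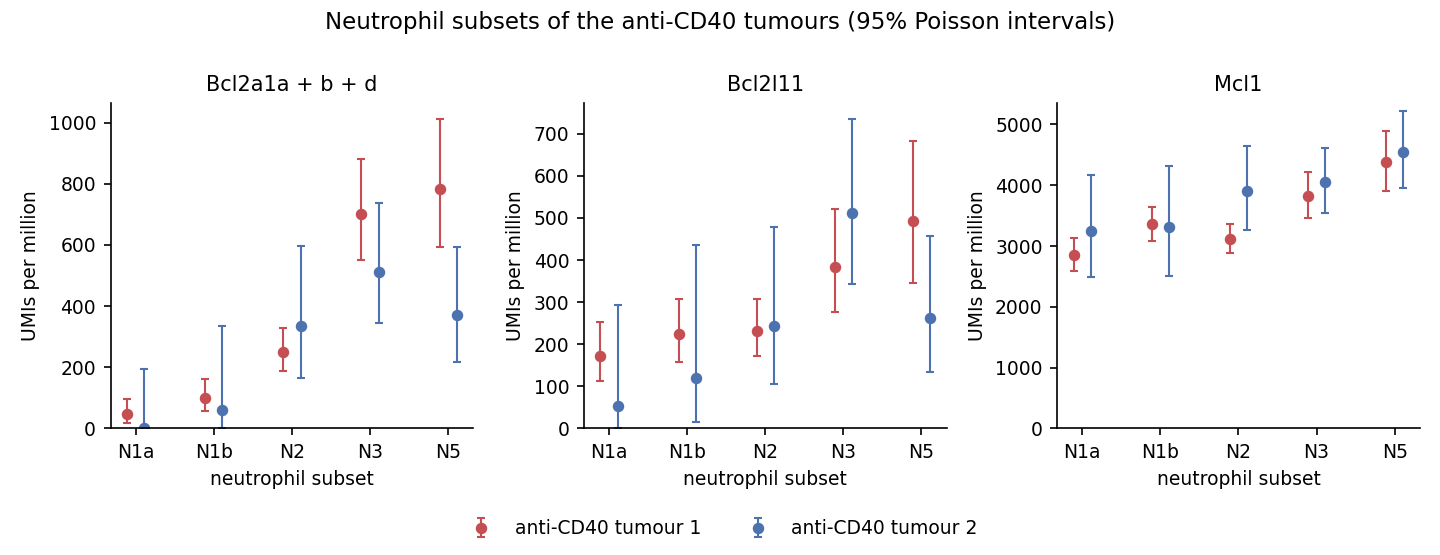
Levels (y axes, CPM) of the summed Bcl2a1 genes, Bcl2l11 and Mcl1 in 5 neutrophil subsets (x axis) of the anti-CD40 tumours, with exact Poisson 95% intervals. The Bcl2a1 sum runs from 46.4 in N1a to 782 in N5 of tumour 1, while Mcl1 stays between 2857 and 4554 in all subsets of both tumours.

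Other genes of the death pathway were read beside the members from a list of 71 genes, all measured. Bcl2l1, which encodes the further guard BCL-XL, followed the Bcl2a1 genes across the neutrophil subsets. It was at 179, 153, 304, 637 and 768 CPM from N1a through N1b, N2 and N3 to N5 in anti-CD40 tumour 1. In anti-CD40 tumour 2 it was at 0, 241, 394, 742 and 719, the first from 0 UMIs. Nfkbia, an inhibitor and target of NF-kB, went the same way, from 1664 in N1a to 10838 in N5 of tumour 1 and from 2308 to 11090 in tumour 2. The other NF-kB genes of the list were split. From N1a to N5, Tnfaip3 (192 to 755 and 262 to 675) and Rela (72.9 to 151 and 0 to 65.4) rose in both tumours. Nfkb1 (225 to 54.9 and 105 to 21.8) and Nfkb2 (192 to 0 and 315 to 43.6) fell in both. Relb and Traf1 differed in direction between the tumours, and Traf2 held few UMIs. Csf3r, the receptor of the neutrophil growth factor G-CSF, was lowest in N5, with 1458, 2340, 2387, 1161 and 837 over the 5 subsets of tumour 1 and 944, 2053, 1819, 1184 and 436 in tumour 2. Bcl2l1, Nfkbia and Csf3r were picked from the list after their values were seen. The subsets were named from the expression of the same cells, so the values are a description.

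The monocyte, macrophage and dendritic cell class was split by marker UMIs, and the gates are called by their genes. A mature dendritic cell gate needed at least 3 UMIs and 2 genes of Ccr7, Fscn1, Ccl22, Il4i1, Socs2 and Cacnb3 and held 37 untreated, 47 and 69 treated cells. A C1q gate, for complement genes typical of macrophages, held 766, 167 and 914 cells, a gate of Ly6c2, Chil3 and Plac8, typical of monocytes, 116, 150 and 113, and 217, 84 and 234 cells remained.

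The mature dendritic cell gate held the highest Bcl2a1 level of all cell types, subsets and gates described here and no Bcl2 UMI. Its Bcl2a1 sum was 2758 CPM (2041 to 3647, 49 UMIs) in the untreated tumour, 3136 (2646 to 3690, 145 UMIs) and 3014 (2607 to 3467, 196 UMIs) in the treated tumours. A Bcl2a1 UMI was seen in 67.6%, 89.4% and 84.1% of these cells, with median depths of 415, 887 and 876 UMIs. The share was 40.1%, 52.7% and 53.5% in the C1q gate and 0%, 14.3% and 10.2% in NK cells. After thinning it was 51.7%, 57.8% and 54.5% in the mature gate and 27.2%, 22.6% and 24.7% in the C1q gate. By level of the Bcl2a1 sum, the C1q gate stood at 1214 CPM (1109 to 1327), 699.7 (595 to 817) and 981 (922 to 1043). The monocyte gate was at 351 (225 to 522), 468 (388 to 560.0) and 1018 (865 to 1191), and the remaining cells at 999.5, 857 and 870.0. All 3 tumours of the mature gate lay above all values of the other gates, also under a TMM scaling of the gate sums, where it spanned 1741 to 3100. Bcl2a1a and Bcl2a1d shared this place, with Bcl2a1a at 844, 908 and 969 and Bcl2a1d at 338, 389 and 185 in the mature gate against 35.0 to 81.9 for Bcl2a1d in the C1q gate.

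Mcl1 did not single out the mature gate. Its level there was 732 (390 to 1251), 562 (367 to 824) and 1169 (921 to 1463), against 708 (628 to 795), 940 (819 to 1075) and 1373 (1302 to 1446) in the C1q gate. The monocyte gate was at 1024, 912 and 1756, and the remaining cells at 864, 1714 and 1672. No UMI of Bcl2 was seen in the mature gate, in which 3 counts correspond to 169, 64.9 and 46.1 CPM. The mature gate held 3.26%, 10.5% and 5.19% of the class and the monocyte gate 10.2%, 33.5% and 8.50%, so the mix by gate differed between the tumours, most in anti-CD40 tumour 1. The part of this mix in the levels of the whole class was not tested. The gates need a fixed number of UMIs at any depth, so these shares may depend on depth. Median depth in the C1q gate was 449 UMIs in the untreated tumour and 1217 and 1000.5 in the treated ones.

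**Figure D3:**
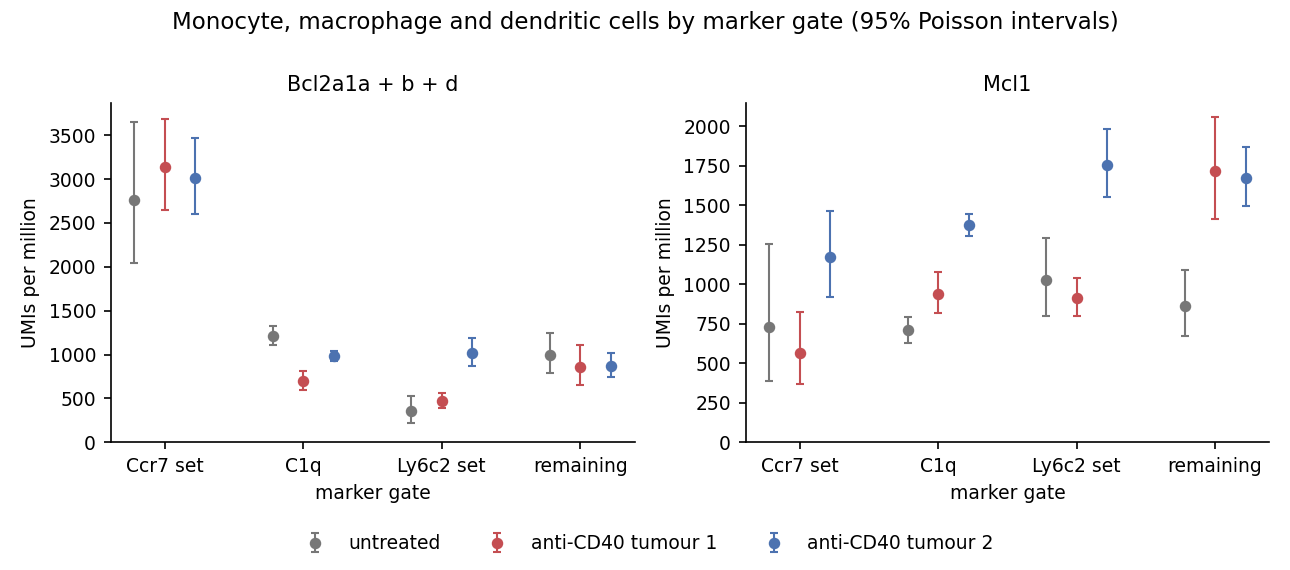
Levels (y axes, CPM) of the summed Bcl2a1 genes and Mcl1 in marker gates of the monocyte, macrophage and dendritic cell class (x axis; the Ccr7 set is the mature dendritic cell gate, the Ly6c2 set the monocyte gate), 1 point per tumour with exact Poisson 95% intervals. The Bcl2a1 sum of the mature gate lies between 2758 and 3136 in the 3 tumours, and that of all other gates at 1214 or below.

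The design then asks whether these genes changed with anti-CD40. For each cell type the UMIs of a tumour were added up and tested with edgeR's quasi-likelihood test, with Benjamini-Hochberg adjustment over all genes tested in a cell type. The test takes the spread of the 2 treated tumours for the single untreated one too, and an exact permutation test over the 3 possible choices of the untreated tumour could not go below 0.33. No member passed an adjusted p of 0.05 in any cell type: 0 of 4 tested in neutrophils, where 0.442% of all genes passed, 0 of 6 in the other myeloid cells, where 0.409% passed, 0 of 4 in T cells (2.09%) and 0 of 3 in NK cells (1.89%). No member had an unadjusted edgeR p below 0.05 either, which 10.9% of all genes had in neutrophils, 9.2% in the other myeloid cells, 11.2% in T cells and 11% in NK cells. DESeq2 called 0 members, and its unadjusted p was below 0.05 for Mcl1 in neutrophils alone. Of all genes with a DESeq2 p, 1.47% had such a p in neutrophils and 1.29% in the other myeloid cells. In T cells and NK cells these shares were 0.254% and 0.25%. Of all genes DESeq2 called 0.404% in neutrophils, 0.256% in the other myeloid cells, 0.0101% in T cells and 0% in NK cells.

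In neutrophils and in the other myeloid cells, both treated tumours had more Mcl1 than the untreated one, without passing the test. Its treated-to-untreated ratio in neutrophils was 1.29 (1.00 to 1.69) and 1.53 (1.18 to 2.02) from plain totals, and its log2 change was 1.08 ± 0.72 (SE), with an edgeR adjusted p of 0.541. In the other myeloid cells the ratios were 1.28 (1.13 to 1.45) and 1.88 (1.69 to 2.09), and the log2 change was 0.70 ± 0.45, with an edgeR adjusted p of 0.711. Both treated tumours were above the untreated one for 32.3% of all genes tested in neutrophils and 34.8% in the other myeloid cells by plain totals, and for 47.3% and 37% by TMM, so this direction is a common one. The pools named in the labels differed, as pools 1 and 2 held the untreated tumour and treated tumour 1, and pools 3 and 4 treated tumour 2 alone. Within-pool values thus compare tumour 1 only, and for tumour 2 pool and tumour cannot be told apart. Within a pool, the myeloid ratio of Mcl1 was 1.14 in pool 1 and 1.497 in pool 2, and the neutrophil ratio 1.20 and 1.51. In the C1q gate alone the ratios were 1.33 (1.11 to 1.59) and 1.94 (1.71 to 2.21), in the monocyte gate 0.891 (0.680 to 1.18) and 1.72 (1.31 to 2.27). Neutrophil markers, 384 CPM of the untreated class and 2350 and 1140 of the treated, moved the same way, and without cells of a second type Mcl1 was at 769, 1052 and 1428 in the class, with a log2 change of 0.74 ± 0.39. The test of a difference between neutrophils and the other myeloid cells gave 1.17 ± 0.76 for Mcl1, with an edgeR adjusted p of 0.914. The median difference over all genes in that test was 1.83, above the value of Mcl1. That median was far from the median log2 changes of the separate fits, 0.29 in neutrophils and 0.02 in the other myeloid cells. With plain library sizes the difference for Mcl1 was -0.14, so its value depends on the scaling.

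The Bcl2a1 genes and Bcl2l11 were lower in treated neutrophils by plain totals, and this direction rests on the scaling. The ratio of the Bcl2a1 sum was 0.384 (0.237 to 0.661) and 0.438 (0.254 to 0.790), and that of Bcl2l11 0.391 (0.235 to 0.698) and 0.442 (0.248 to 0.829). By plain totals, both treated tumours lay below the untreated one for 51.3% of all genes tested in neutrophils, against 33.8% by TMM. Within pools 1 and 2, for tumour 1 only, the sum was at 0.395 and 0.346 of the untreated level and Bcl2l11 at 0.374 and 0.392. Under the TMM scaling of all 12 sums, however, the Bcl2a1 sum was 528 in untreated neutrophils, 533 and 525 in treated ones, and Bcl2l11 was 469, 483 and 471. In edgeR, with TMM over the 3 neutrophil sums, the log2 changes were -0.70 ± 0.69 for the Bcl2a1 genes summed (Bcl2a1c included, adjusted p of 0.727) and -0.69 ± 0.71 for Bcl2l11 (adjusted p of 0.733). With plain library sizes the median log2 change of all genes moved from 0.29 to -0.28, and Bcl2l11 to -1.27. The genes called then split into 6 higher and 8 lower, against 11 higher and 1 lower with TMM.

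**Figure D4:**
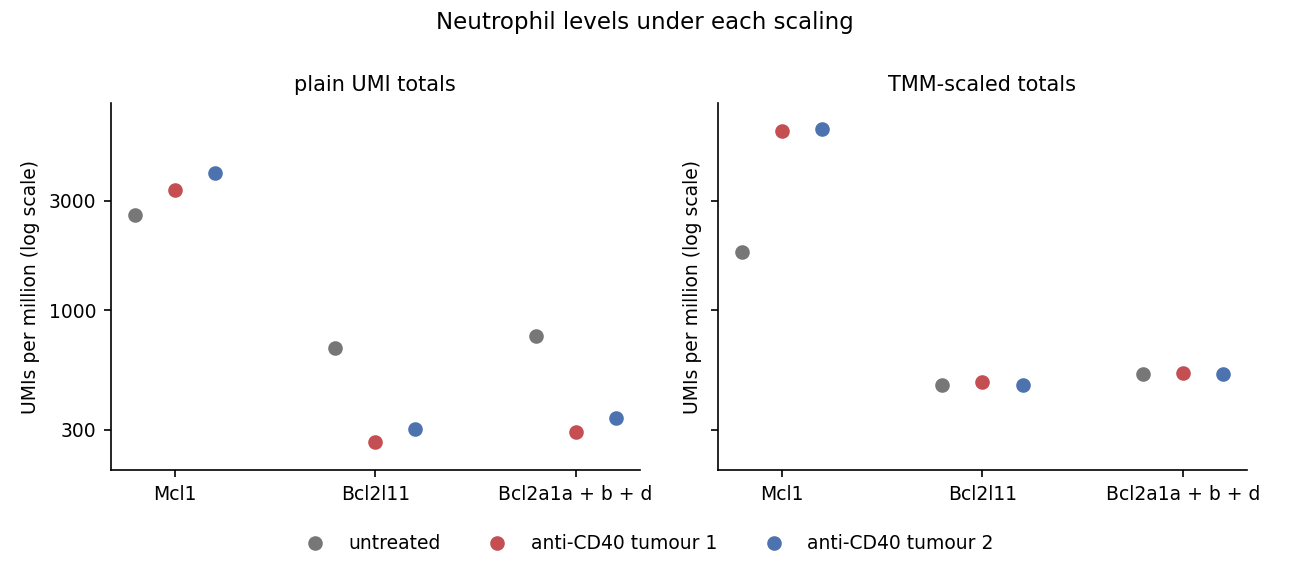
Neutrophil levels (y axis, CPM, log scale) of Mcl1, Bcl2l11 and the summed Bcl2a1 genes in each tumour, from plain UMI totals (left) and from totals scaled by TMM over all cell types (right). By plain totals the untreated tumour is highest for the Bcl2a1 sum (767 against 295 and 336), while under TMM the 3 tumours lie between 525 and 533.

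Neutrophil make-up and marker levels moved with these values. The 8 neutrophil markers took 38691 CPM of untreated neutrophils and 105112 and 68712 of treated ones, with S100a9 alone at 14530, 44304 and 28825. The 8 macrophage and monocyte markers took 341, 964 and 637 CPM of neutrophils, with 6, 6 and 8 of the 8 detected, and the dendritic, NK and B cell lists held at most 1 UMI each in any tumour. Subsets N1a and N1b, in which the Bcl2a1 genes were lowest, made up 4 of 49 untreated, 276 of 700 and 30 of 215 treated neutrophils. Without these subsets the log2 change was -0.49 ± 0.81 for Bcl2a1a, -0.43 ± 0.73 for Bcl2a1b and -0.46 ± 0.72 for Bcl2l11, with edgeR adjusted p of 0.877, 0.883 and 0.874. Between libraries, the Bcl2a1 sum spanned 329 to 1128 over the 4 untreated libraries, each of 8 to 15 neutrophils, 240 to 358 over those of tumour 1 and 218 to 579 over those of tumour 2. The part of these in the neutrophil values was not tested.

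In the other myeloid cells no Bcl2a1 gene passed the test. The log2 change was -0.04 ± 0.39 for Bcl2a1a, -0.27 ± 0.42 for Bcl2a1b and -0.63 ± 0.40 for Bcl2a1d, with edgeR adjusted p of 0.980, 0.881 and 0.704. Without cells of a second type the summed level was 1117, 1047 and 1085, and the value of tumour 1 (807 with those cells) was then close to the others. This filter, a fixed number of UMIs at any depth, left out 1.67% of the class in the untreated tumour. In treated tumours 1 and 2 it left out 18.3% and 7.89%. The neutrophil markers it used include S100a8 and S100a9. A S100a9 UMI was seen in 1.85% of the class in the untreated tumour and in 15.6% and 6.54% in treated tumours 1 and 2. A cell left out may thus be a cell of the class that holds these genes. The part of the cells left out in this shift was not tested. The gates differed from each other in what they showed. In the C1q gate the Bcl2a1 sum was at 0.576 (0.479 to 0.690) and 0.808 (0.725 to 0.902) of the untreated level, in the mature gate at 1.14 (0.817 to 1.61) and 1.09 (0.796 to 1.53), and in the monocyte gate at 1.33 (0.855 to 2.16) and 2.90 (1.88 to 4.67). The difference between gates was not tested. Bcl2 had a log2 change of -0.71 ± 0.64 (edgeR adjusted p of 0.807) in the class and Bcl2l11 -0.04 ± 0.40 (adjusted p of 0.980).

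In lymphocytes, both treated tumours had less Bcl2 than the untreated one, without passing the test, a direction that, by plain totals, 36% of all genes tested in NK cells and 35% in T cells had (35.9% and 35.7% by TMM). In NK cells its ratio to the untreated level was 0.499 (0.294 to 0.841) and 0.774 (0.532 to 1.15), and its log2 change was -0.62 ± 0.50, with an edgeR adjusted p of 0.660. Single untreated NK libraries spanned 1242 to 2149 CPM, those of tumour 1 548 to 961 and those of tumour 2 925 to 1528. These spreads are technical, since the libraries of a tumour come from 1 animal. In T cells the log2 change was -0.38 ± 0.60 for Bcl2 (adjusted p of 0.848), 0.34 ± 0.37 for Mcl1, -0.38 ± 0.44 for Bcl2a1b and 0.81 ± 0.59 for Bcl2l11 (adjusted p of 0.675). Bcl2l11 in NK cells changed by -0.90 ± 0.55 (adjusted p of 0.591) and Mcl1 by -0.05 ± 0.63 (adjusted p of 0.988). The test of a difference between T cells and the other myeloid cells called 0.204% of all genes and no member, and that for neutrophils called 0.0779% and no member. No member had an unadjusted edgeR p below 0.05 in these tests. Of all genes, 337 of 6846 had one for T cells and 430 of 7700 for neutrophils.

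**Figure D5:**
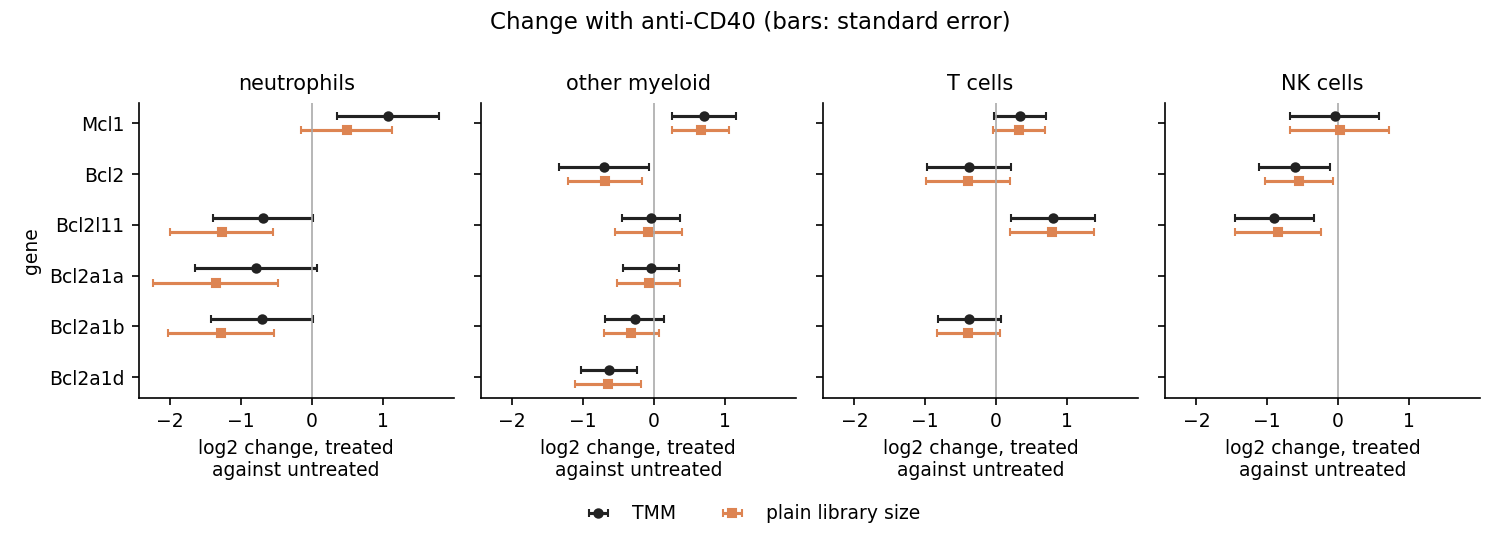
Log2 change between treated and untreated tumours (x axis) of each member tested (y axis) in 4 cell types, with standard errors as bars, from edgeR with TMM (circles) and with plain library sizes (squares). No member passed, and in neutrophils all points sit further left with plain library sizes (Mcl1 at 0.49 against 1.08).

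Of the 71 pathway genes, 1 passed the treatment test in a cell type. Il7r, the receptor chain for the T cell survival factor interleukin 7, was at 131 CPM in untreated T cells and at 647 and 439 in treated ones. Its log2 change was 1.95 ± 0.48, with an edgeR adjusted p of 0.00354. The call was lost with DESeq2 (adjusted p of 0.998), with cells thinned (adjusted p of 0.328) and without pool 1, where the log2 change was 1.07 (adjusted p of 0.388). Of the pathway genes tested, 0 of 36 passed in neutrophils, 0 of 62 in the other myeloid cells, 1 of 24 in T cells and 0 of 11 in NK cells. Over all genes tested the shares that passed were 0.442%, 0.409%, 2.09% and 1.89%. Unadjusted edgeR p-values below 0.05 numbered 2, 6, 2 and 2 in the list, where 10.9%, 9.2%, 11.2% and 11% of all genes had one. DESeq2 called 0 of the list in every cell type, with 3 of 65, 4 of 67, 1 of 66 and 0 of 61 unadjusted p below 0.05, against 1.47%, 1.29%, 0.254% and 0.25% of all genes with a p. The median log2 change of the list was 0.38 in neutrophils, where it was 0.29 over all genes, 0.18 against 0.02 in the other myeloid cells, 0.05 against 0.03 in T cells and 0.39 against 0.05 in NK cells.

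The genes at the ends of the list are given by value. In neutrophils Traf1, an adaptor of CD40 and tumour necrosis factor receptors, had the largest log2 change of genes with untreated UMIs, 2.00 ± 0.90 (edgeR adjusted p of 0.439). Il2rg, the shared chain of interleukin receptors, and Apaf1, the scaffold that activates caspase 9, had no UMI in untreated neutrophils and stood at 279 and 191, and at 71.6 and 29.0 CPM, in treated ones. The lowest were Bcl2a1a, Rela (-0.76 ± 0.86, adjusted p of 0.761), an NF-kB subunit, and Bcl2a1b. In the other myeloid cells the highest were Casp8 (1.83 ± 0.47, adjusted p of 0.174), the caspase of death receptors, Tnfaip3 (1.68 ± 0.56, adjusted p of 0.393), a brake on NF-kB, and Pmaip1 (1.43 ± 0.43, adjusted p of 0.262), which encodes the MCL1-binding protein NOXA. The lowest were Il2rb (-1.32 ± 0.93, adjusted p of 0.742), Casp4 (-1.17 ± 0.53, adjusted p of 0.536) and Bid (-0.81 ± 0.58, adjusted p of 0.743). None of these passed.

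By level, 15 of the 71 genes were highest in neutrophils in all 3 tumours, 7 in the other myeloid cells, 6 in NK cells and 4 in T cells. Among the genes with at least 100 UMIs in all cells these were 15, 5, 4 and 4 of 51, or 29.4%, 9.8%, 7.84% and 7.84%, against 12.7%, 10.5%, 5.85% and 6.23% of all 4992 such genes. For 36 the highest type differed between tumours, and Bcl2l10, Bok and Hrk had no UMI. The neutrophil genes included Bcl2l1 (298, 338 and 533 CPM), Birc3 (256, 338 and 267), an inhibitor of apoptosis, and Tnfrsf1a (554, 515 and 643). Those of the myeloid class included the pore former Bax (142, 321 and 278) and Csf1r (1148, 685 and 821), the receptor for the macrophage growth factor. NK cells led for Il2rb (2531, 2894 and 3346), a chain of the interleukin 15 receptor, and T cells for Foxo1 (339.6, 277 and 308), a factor known to switch on Bcl2l11 and Il7r.

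Genes most like a member were sought over 22 sums of tumour and class (neutrophil subsets, other myeloid cells, T cells and NK cells, each with at least 10 cells) among 2824 genes, by Pearson's correlation of log2(CPM + 10). The sums of a tumour share libraries and depth, and most separate neutrophils from other cells, so the values only describe. Mcl1 was most like Thbs1 (0.98), Slpi (0.98), Cxcl2 (0.98), Clec4d (0.97) and Dusp1 (0.97). Bcl2 was most like the NK cell genes Klrk1 (0.97), Klrd1 (0.96) and Ctsw (0.96), then Dut (0.96) and Xcl1 (0.96). Bcl2l11 had no close match, with Rsrp1 at 0.74, Osgin1 at 0.72, Rbpj at 0.71 and Tnfrsf26 at 0.70. The Bcl2a1 sum was most like Irf2bp2 (0.83), Mdm2 (0.81), P4ha1 (0.78), Srrm1 (0.78) and Ctsz (0.77). Mcl1 and Bcl2 ran opposite to each other over the same sums, with a correlation of -0.96.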

How the data were processed

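Single-cell RNA sequencing by inDrops of CD45+ cells labelled with the dye 7AAD and sorted from MC38 tumours was analysed. The authors deposited whole-number UMI counts per cell and gene, not normalised, with a table naming each cell's library, animal, condition, cell type and neutrophil subset. Bcl2fastq, STAR and the GRCm38 build were used per the submitters' processing notes. Versions, annotation, cell filters and the handling of doublets and of multiply mapping reads are not stated in those sources. All deposited cells were kept, with no doublet calling. The members, pathway list and marker lists were chosen with earlier results of these data known. UMIs were summed per tumour and class and tested with edgeR 4.0.16 in R 4.3.3 (TMM, filterByExpr, robust quasi-likelihood), with DESeq2 1.42.0 as an alternative. Standard errors come from the F statistic. The prior degrees of freedom were infinite in neutrophils, T and NK cells and 15.9 in the other myeloid cells, so p-values rest mostly on a spread shared over genes. Named genes were the members, pathway genes that passed, the 3 highest and 3 lowest changes of the list in neutrophils and other myeloid cells, the genes counted in a role, and the 5 most like each member, of which 1 is not reported here. Alternatives were plain library size, no filter, leaving out pools or tumours, within-pool values, cells without markers of a second type, thinning to 300 UMIs, cells without the lowest depths, summed paralogs, other gates and subsets, means over cells and rank correlation.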

Additional observations from a re-analysis of the deposited data

Results flagged for a closer look

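Bcl2l11 moved in opposite directions in different cell types, by TMM-scaled CPM of each cell type's own fit. In T cells both treated tumours were above the untreated one (202 and 302 against 151), while in neutrophils (309 and 389 against 560) and in NK cells (427 and 708 against 1116) both were below it. The log2 change in neutrophils was lower than that in T cells by -1.50, and that in T cells was higher than that in NK cells by 1.71. The neutrophil direction depends on the scaling, for under TMM over the sums of all cell types Bcl2l11 was at 469 in untreated and 483 and 471 in treated neutrophils. These differences were not tested, and no single change passed the test (edgeR adjusted p of 0.733 in neutrophils, 0.675 in T cells and 0.591 in NK cells). The untreated values rest on 16 neutrophil, 9 T cell and 17 NK cell UMIs.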

How the results depend on the processing

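No alternative with a test gave an adjusted p below 0.05 for a member in any cell type, and over all alternatives 288 log2 changes and differences kept their direction and their side of the threshold (or, with no test, moved by less than 1 SE), 36 reversed, 11 untested ones moved by more than 1 SE and 3, those of Il7r in T cells, lost their call. In the other myeloid cells Bcl2 turned to 0.45 within pool 1, Bcl2l11 to 0.29 within pool 2, 0.33 with thinned cells and 0.0022 without the mature dendritic cell gate (added after the data were seen), and Bcl2a1a to 0.094 without cells of a second type and 0.25 with thinned cells. In T cells Mcl1 turned to -0.21 and Bcl2a1b to 0.089 with thinned cells. Mcl1 in NK cells was 0.024 with plain library sizes, 0.25 with no filter, 0.16 with DESeq2 and 0.22 without cells of a second type. The difference between neutrophils and other myeloid cells turned with plain library sizes to -1.17 for Bcl2l11, -0.14 for Mcl1, -1.26 for Bcl2a1a and -0.92 for Bcl2a1b, and with no filter to -0.38 for Bcl2l11, -0.45 for Bcl2a1a and -0.12 for Bcl2a1b. Leaving out 1 pool or treated tumour at a time, log2 changes in the other myeloid cells ranged from -0.35 to 0.50 for Bcl2l11, -0.27 to 0.13 for Bcl2a1a and -0.71 to 0.050 for Bcl2a1b, in T cells from -1.44 to 0.0021 for Bcl2a1b and in NK cells from -0.15 to 0.13 for Mcl1. Differences between neutrophils and other myeloid cells ranged from -0.68 to 0.66 for Bcl2l11, -0.19 to 0.35 for Bcl2a1a and -0.35 to 1.07 for Bcl2a1b, and between T cells and other myeloid cells from -0.43 to 2.35 for Bcl2, -6.11 to 0.83 for Bcl2a1d and -0.76 to 0.21 for Bcl2a1b. Genes called in neutrophils, 12 in the main test, were 7 with no filter, 6 without cells of a second type, 6 with thinned cells and 2 without N1a and N1b, and 3 to 25 without a pool (3 without pool 1, 25 without pool 2, 7 without pool 3 and 21 without pool 4). The 29 genes in the other myeloid cells became 89 with plain library sizes, 141 with no filter, 14 with DESeq2, 8 without the tenth of cells of lowest depth, 56 with thinned cells, 121 in the C1q gate and 3 without the mature gate, and 1 to 27 without a pool (1 without pool 2, 14 without pool 3 and 10 without pool 4). The 39 in T cells became 1 with DESeq2 and 3 with thinned cells, and 19 to 32 without a pool (19 without pool 2). The 15 in NK cells became 8 with no filter, 0 with DESeq2 and 1 with thinned cells, and 1 to 16 without a pool (2 without pool 1, 1 without pool 2 and 6 without pool 4). The 6 genes of the neutrophil difference became 1 with no filter and 0 to 28 without a pool (28 without pool 2, 0 without pool 4), and the 14 of the T cell difference 0 to 16 (6 without pool 1, 0 without pool 2). The cause of these shifts was not tested.

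By median level, 7 of 7 features (6 members and the Bcl2a1 sum) kept their highest cell type with means over cells, without cells of a second type and without each pool, and 6 under the TMM scaling, where Bcl2l11 moved from NK cells to neutrophils. In the myeloid gates 6 of 7 kept their highest gate with 1 UMI more per gate and 6 under TMM, Bcl2l11 being the exception in both. In the treated tumours alone 7 of 7 kept their highest neutrophil subset under TMM, although that of Bcl2 rests on 1 UMI in N1a and that of Bcl2a1d on 3 UMIs in N3; with the untreated tumour included, Mcl1 had its highest TMM median in N3 (5270.5) and not in N5 (5164). All 7 kept their highest cell type by thinned shares. Of the 5 genes most like each member, a rank correlation shared 3 for Mcl1, 0 for Bcl2, 1 for Bcl2l11 and 1 for the Bcl2a1 sum. No paired analysis was possible because the untreated tumour and the treated tumours come from different animals and the replicate numbers of the labels only number pools. Depth limits untreated neutrophils most, with 23468 UMIs in 49 cells.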
